A study of Oncorhynchus mykiss with 70 samples.

Results

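Extraocular muscles turn the eye, and the adductor of the head closes the jaw. Among 70 RNA samples of 23 rainbow trout tissues, 7 were taken from these 2 muscles, and they were chosen by their titles alone: 3 samples titled Extraocular Muscle and 4 titled Adductor Skeletal Muscle. The titles do not say which adductor was dissected, so reading it as the jaw muscle is an assumption of the comparison. NanoString counting was used, which reads single RNA molecules by coloured barcodes without amplification. Its custom probes covered 49 genes of the activin receptor pathway and 3 reference genes (actb, ef1a and tbp), beside 8 negative and 6 positive controls. All 7 samples came from untreated adult males of clonal lines (Swanson and Oregon State University), aged 2 to 3 years and kept in recirculating water. The labels do not give the line of a sample, or the fish it came from, and the design text calls the replicates of a tissue biological. A muscle sample also holds vessels, nerve, fat and connective tissue, and in such bulk RNA fewer cells of a type and less RNA per cell cannot be told apart.

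Activins, myostatins and growth differentiation factor 11 are secreted ligands of the TGF-beta superfamily. They bind a type II receptor (acvr2), which recruits and phosphorylates a type I receptor (acvr1). The type I receptors acvr1b and acvr1c then phosphorylate Smad2 and Smad3, and these Smads enter the nucleus together with Smad4 to change transcription. Follistatin binds the ligands outside the cell, bambi proteins are receptors without a kinase, and Smad6 and Smad7 restrain the signal inside the cell. In vertebrate skeletal muscle the pathway is known above all through myostatin, a muscle-made inhibitor of muscle growth. Salmonid fish carry many of these genes as duplicates from a whole-genome duplication, written here with a final 1 or 2, and the code set held 21 such pairs. In 2 of these pairs, inhab and acvr2ba, the probe of copy 1 also binds the locus of copy 2 per the authors' list, so their copies are not measured apart.

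The level of a gene is its count divided by the sample's reference factor, that is, the geometric mean of its actb, ef1a and tbp counts relative to the average of all 70 samples. Levels of different genes were not set against each other, since probes may differ in efficiency. Total counts ran from 73514 to 133167 per sample. The 49 pathway genes together took 511, 1446, 2307 and 4581 counts in Adductor Skeletal Muscle 1 to 4, and 12946, 2998 and 6304 in Extraocular Muscle 1 to 3. A gene was called above background where its count passed the mean plus 2 SD of that sample's negative controls. By this measure 7, 38, 26 and 41 genes of 49 were above background in Adductor Skeletal Muscle 1 to 4, and 48, 30 and 42 in Extraocular Muscle 1 to 3. In Adductor Skeletal Muscle 1 a single count was worth 9.94 level units, and the mean negative control stood at 85.7, so most of its levels are background.

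The defining marker of skeletal muscle in the code set was mstna1, a myostatin whose probe binds both copies of the gene (LOC100135919 and LOC100135920). No other skeletal muscle marker was in the panel. Its target, shown because it carries the check of the muscle label, is a 100-base stretch of a gene on chromosome 22 of the authors' list, printed 5′ to 3′ from the authors' probe list.
mstna1: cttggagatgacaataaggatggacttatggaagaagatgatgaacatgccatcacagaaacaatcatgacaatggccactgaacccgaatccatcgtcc
The raw count of mstna1 was 1851, 3 and 1507 in Extraocular Muscle 1, 2 and 3, and 11, 243, 109 and 707 in Adductor Skeletal Muscle 1 to 4. As levels these were 1350, 2.10 and 1780 in the extraocular samples and 109.3, 1157, 284 and 1061 in the adductor samples. Extraocular Muscle 1 and 3 stood above every adductor sample, and Extraocular Muscle 2 stood below all of them, at fewer counts than its own mean negative control of 6.125. In the 15 samples of 5 other skeletal muscles the level of mstna1 ran from 44.7 to 2030 with a median of 740, and in the 48 samples of 16 other tissues from 0.298 to 417 with a median of 20.1. The library labelled Extraocular Muscle 2 thus lacked the muscle marker while its total count and its reference factor, 1.43, were the highest of the 7. In Adductor Skeletal Muscle 1 the marker did not pass background either, at 11 counts against a limit of 21.6. There the level of 109.3 cannot be told from background.

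The 49-gene profiles also set the extraocular samples apart from each other. Each profile was taken as log2(level + 10), with the sample's mean and the gene's mean over tissues removed, and correlated across the 49 genes with the mean profile of each tissue, leaving the sample itself out. Genes are not independent replicates, and all profiles share the same code set, so these values are a description. Extraocular Muscle 1 was most like Red Skeletal Muscle (r = 0.71) and next Visceral Fat (r = 0.44). Extraocular Muscle 2 was most like Visceral Fat (r = 0.52) and Tongue (r = 0.42), and Extraocular Muscle 3 was most like Adductor Skeletal Muscle (r = 0.59). Between the extraocular samples r was 0.17 to 0.21, and among the adductor samples 0.32 to 0.77. Adductor Skeletal Muscle 3 and 4 were most like the other adductor samples (r = 0.63 and 0.79). Adductor Skeletal Muscle 2 was most like Red Skeletal Muscle (r = 0.69) and Adductor Skeletal Muscle 1 most like Pelvic Fin Skeletal Muscle (r = 0.52). Only 7 of 49 genes passed background in Adductor Skeletal Muscle 1, so its correlations rest mostly on background levels. Results are therefore given with and without Extraocular Muscle 2 and Adductor Skeletal Muscle 1, and Extraocular Muscle 1 is named where it decides a value.

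**Figure D1:**
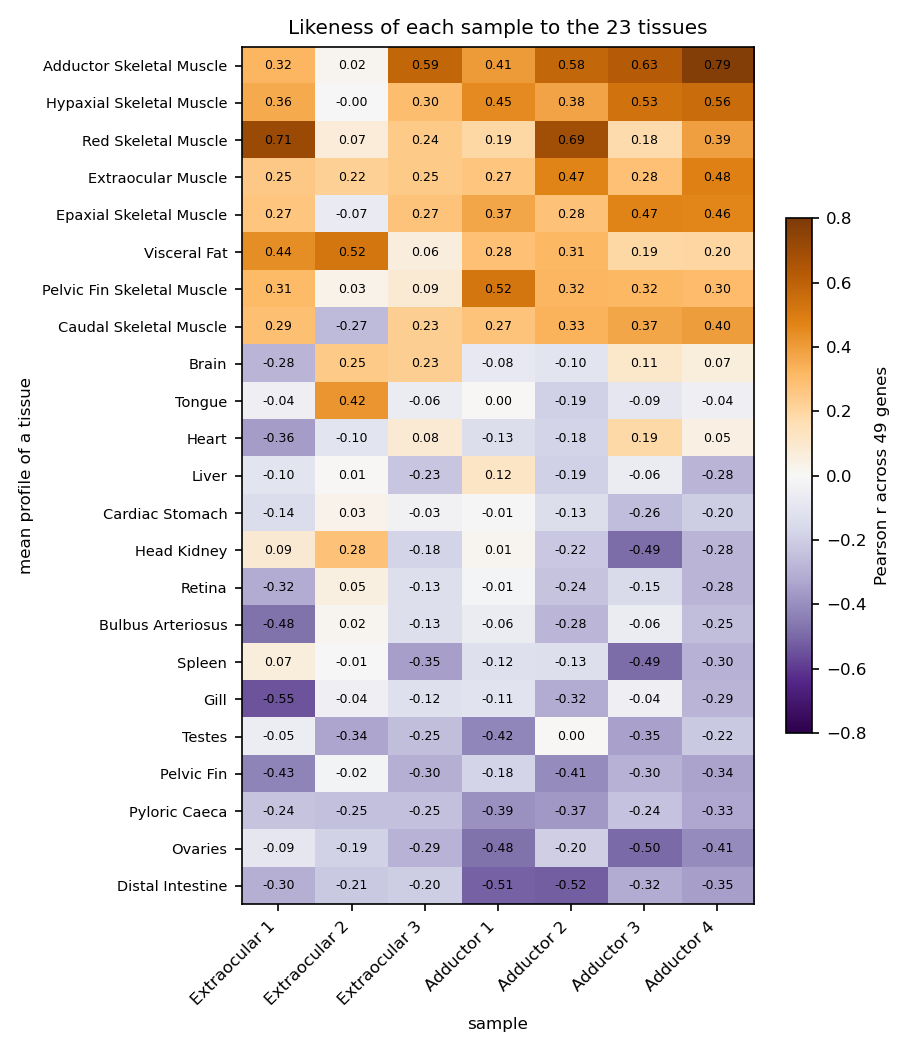
Pearson r across 49 genes between each of the 7 samples (columns) and the mean profile of each of 23 tissues (rows), the sample itself left out of its own tissue's mean. Extraocular Muscle 2 has r of 0.22 with the other extraocular samples and 0.02 with Adductor Skeletal Muscle, against 0.52 with Visceral Fat. Extraocular Muscle 1 and 3 each have a similar r of 0.25 with the other extraocular samples.

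The main comparison asked which pathway genes differed between the muscles. By edgeR's quasi-likelihood test on the counts, fitted to all 70 samples and adjusted by Benjamini-Hochberg over 49 genes, 0 of 49 genes passed an adjusted p of 0.05 in either direction (0% higher and 0% lower), and the smallest adjusted p was 0.264. At an unadjusted p under 0.05 there were 5 genes (10.2% of the 49). Of these gdf11b2, acvr2aa2, inhbab1 and acvr1ca2 had higher estimates in Extraocular Muscle (8.16%), and inhbaa2 had a lower one (2.04%). DESeq2 with the same reference factors also called 0 genes (6 at an unadjusted p under 0.05), and limma on log2(level + 10) called 0 (5 at an unadjusted p under 0.05). Fitted by edgeR to the 22 skeletal muscle samples, or to the 7 samples alone, 0 genes were called. Each of these 2 fits had 2 genes at an unadjusted p under 0.05. In the main fit 21 of 49 estimates were above 0 and 28 below. The median log2 difference was -0.10, Extraocular Muscle minus Adductor Skeletal Muscle. The 95% intervals were derived from the estimates and their p-values. From the estimate to a bound of its 95% interval the median distance was 1.18 on the log2 scale, with a range of 0.54 to 2.42. Only acvr1ab1, acvr1ab2 and acvr2aa1 had an interval that lay within 1 log2 unit of 0, so for the other 46 genes a difference of 2-fold was not excluded by its interval. The intervals rest on a spread estimated over all 70 samples. For these 3 genes the SD of log2(level + 10) was 0.59, 0.95 and 0.83 in Extraocular Muscle. In Adductor Skeletal Muscle it was 0.39, 0.24 and 0.33. Their intervals may therefore be too narrow for the extraocular samples.

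Without Adductor Skeletal Muscle 1 edgeR again called 0 of 49 genes, with 7 at an unadjusted p under 0.05, and the median was -0.05. Without Extraocular Muscle 2 it called acvr2aa2 alone (2.04% of 49), and the median moved to 0.37. Without both, an alternative chosen after seeing the data, it called 3 genes (6.12% of 49). These were acvr2aa2, gdf11b2 and inhbab1, all higher in Extraocular Muscle, and 35 of 49 estimates were above 0 with a median of 0.41. Leaving out Extraocular Muscle 1 alone, edgeR called 0 of 49 genes, with 13 at an unadjusted p under 0.05. Only 9 of 49 estimates were then above 0, and the median was -0.74. Pathway scaling, in which the geometric mean of all 49 pathway counts replaced the reference factor, called gdf11b1 and gdf11b2 with all 7 samples (4.08% of 49), at a median of -0.09. The genes called under pathway scaling changed with the samples, in alternatives also chosen after seeing the data. Neither gdf11b gene was called without Extraocular Muscle 2, where the calls were acvr2aa2 and inhbab1 (4.08%). The calls were gdf11b2 and inhbab1 (4.08%) without Extraocular Muscle 2 and Adductor Skeletal Muscle 1. Without Extraocular Muscle 1 there were 4 (8.16%), acvr2aa2, gdf11b1, gdf11b2 and inhbab1.

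**Figure D2:**
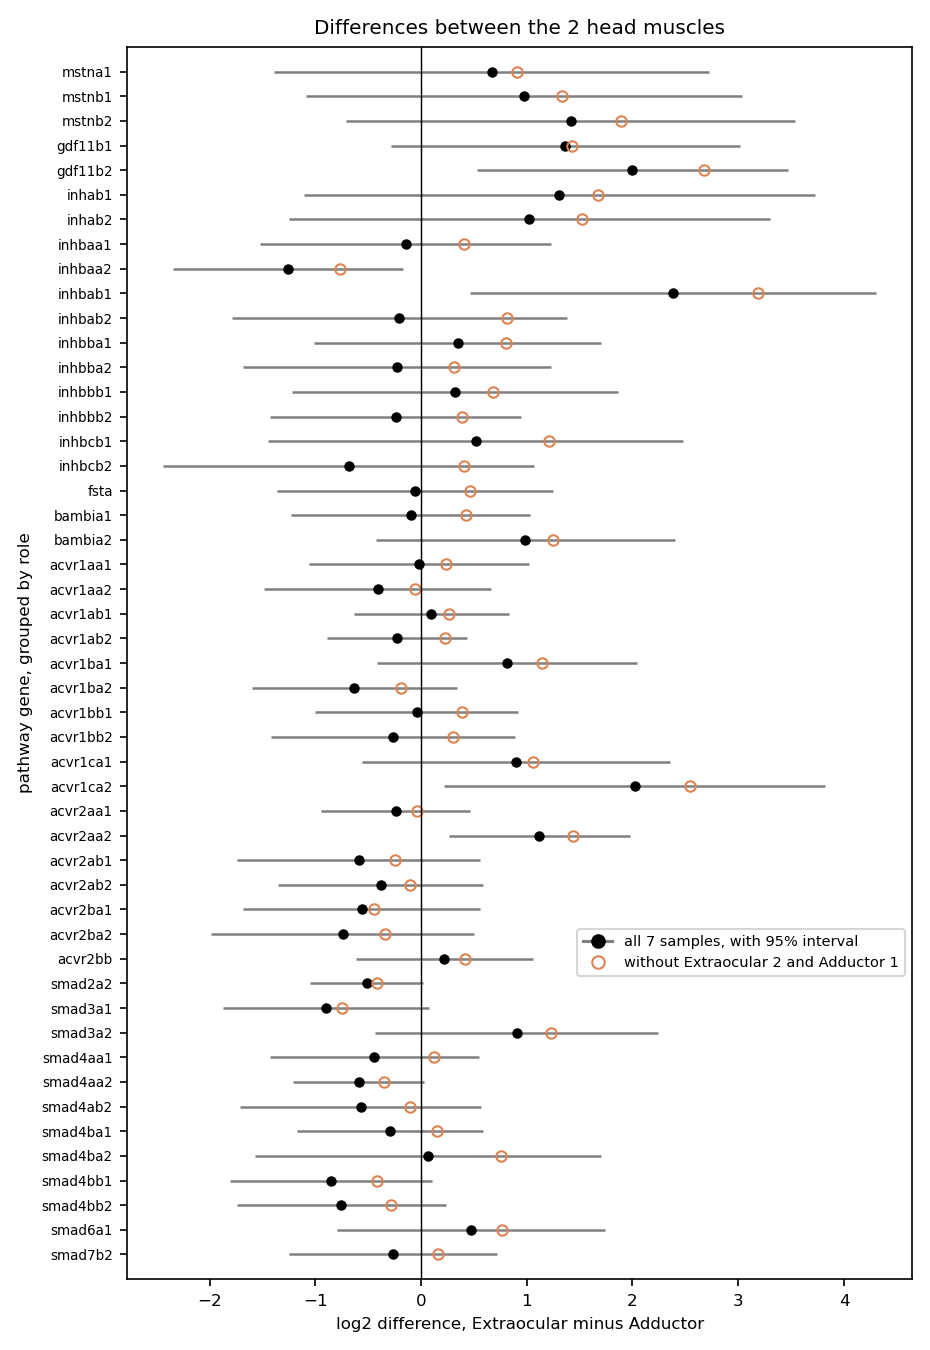
Log2 difference (Extraocular minus Adductor, x axis) of each of the 49 genes grouped by role, as black points with 95% intervals for all 7 samples and as open orange circles without Extraocular Muscle 2 and Adductor Skeletal Muscle 1. The black points have a median of -0.10 and the circles a median of 0.41, and gdf11b2, inhbab1, acvr2aa2 and acvr1ca2 have intervals above 0 before adjustment.

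The spread between replicates differed in size between the muscles. For 47 of 49 genes the SD of the log2 level was larger in Extraocular Muscle than in Adductor Skeletal Muscle, and the same number held against Adductor Skeletal Muscle 2 to 4. The median SD was 1.06 in the extraocular and 0.40 in the adductor samples, or 0.37 in Adductor Skeletal Muscle 2 to 4. Under pathway scaling the SD was larger in Extraocular Muscle for 36 of 49 genes, or 37 against Adductor Skeletal Muscle 2 to 4, and the medians were 0.85, 0.61 and 0.51. By reference-scaled level, Extraocular Muscle 2 was the lowest of the extraocular samples for 45 of 49 genes and Extraocular Muscle 1 the highest for 34. The ratio of actb to tbp counts was 79.5, 313 and 304 in Extraocular Muscle 1 to 3, while the adductor samples lay between 126 and 217. The part of these reference ratios in the spread was not tested.

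**Figure D3:**
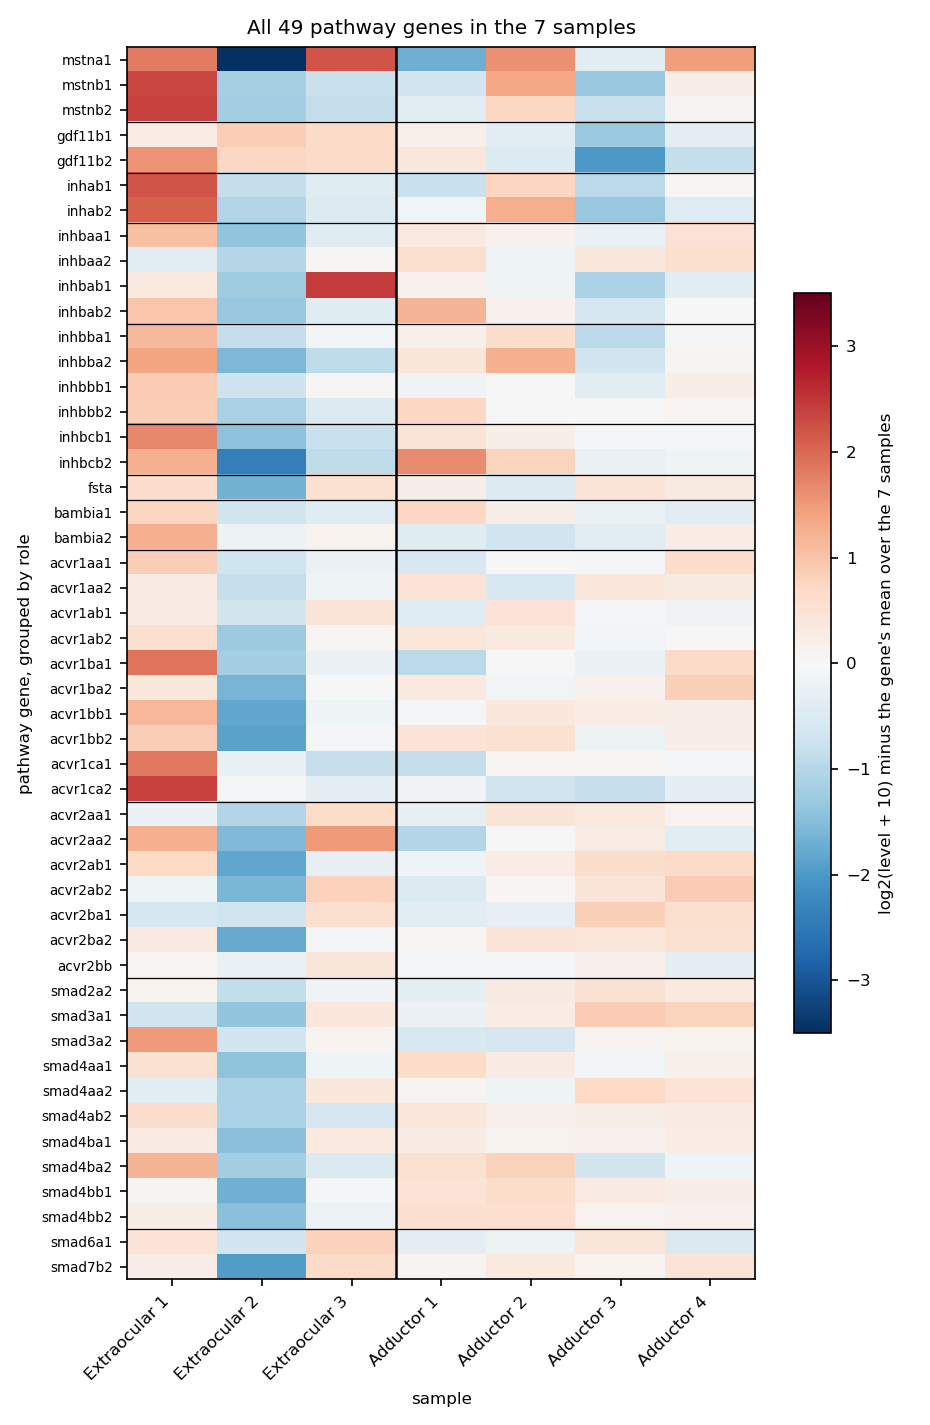
Log2(level + 10) of 49 genes (rows, grouped by role) in the 7 samples (columns), minus each gene's mean over the 7 samples. Extraocular Muscle 2 is the lowest of the 7 samples for 39 genes and Extraocular Muscle 1 the highest for 25.

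The sum of the 49 pathway counts per unit of reference gene gave one value per sample. In log2 units it averaged 1.01 ± 1.17 (SD, n = 3) in Extraocular Muscle and 1.23 ± 0.21 (SD, n = 4) in Adductor Skeletal Muscle. The difference of -0.22 had p = 0.857 by a two-sided exact permutation test, whose 35 arrangements allow no p below 0.0571. Without Extraocular Muscle 2 the difference was 0.44.

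Ligands came first in the order of the pathway. The ligand list of 15 genes held the myostatins, the gdf11b pair, inhibin alpha and the activin beta A and B chains, while the activin beta C pair was kept apart. Of these genes 10 had estimates above 0 and 5 below, with a median log2 difference of 0.67 against -0.10 over all 49 genes. By edgeR 0 passed the adjusted test (3 at an unadjusted p under 0.05). Without Extraocular Muscle 1, 4 of the 15 were above 0 and 11 below, with a median of -1.30 against -0.74 over all 49 genes. Among the ligands only the gdf11b pair had levels that did not overlap between the groups. It codes for growth differentiation factor 11, a close relative of myostatin. The genes named from here on other than the myostatins and fsta were chosen after their values were seen. The count of gdf11b2 was 235, 128 and 73 in Extraocular Muscle 1 to 3 and 7, 7, 2 and 16 in Adductor Skeletal Muscle 1 to 4. Its level was 171, 89.7 and 86.2 in the extraocular samples and 69.6, 33.3, 5.21 and 24 in the adductor samples. Every extraocular sample stood above every adductor sample, and all adductor counts but that of Adductor Skeletal Muscle 2 lay below the background limit. The log2 difference was 2.00 ± 0.73 (SE), a 4.00-fold ratio, with adjusted p = 0.264 by edgeR's quasi-likelihood test. It was 2.52 ± 0.79 (SE) without Adductor Skeletal Muscle 1 (adjusted p = 0.126 by edgeR) and 2.62 ± 0.62 (SE) under pathway scaling (adjusted p = 0.00489 by edgeR). Under pathway scaling without Extraocular Muscle 2, whose scaled value of 181 stood far above the 50.2 and 49.4 of Extraocular Muscle 1 and 3, it was 1.74 ± 0.64 (SE) and the call was lost (adjusted p = 0.147 by edgeR). With Adductor Skeletal Muscle 1 left out as well it was 2.22 ± 0.67 (SE) (adjusted p = 0.0404 by edgeR). Over 34 alternatives the estimate stayed between 1.02 and 4.03, and the adjusted p ran from 0.000413 to 0.710.

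For gdf11b1 the counts were 59, 100 and 51 in Extraocular Muscle 1 to 3 and 4, 5, 3 and 17 in Adductor Skeletal Muscle 1 to 4. All adductor counts but that of Adductor Skeletal Muscle 4 lay below the background limit. The levels were 43.0, 70.1 and 60.2 against 39.7, 23.8, 7.82 and 25.5, so the groups did not overlap, although Adductor Skeletal Muscle 1 came close at a level that rests on 4 counts. The log2 difference was 1.36 ± 0.82 (SE) with adjusted p = 0.505 by edgeR's quasi-likelihood test, and 2.33 ± 0.63 (SE) under pathway scaling with adjusted p = 0.0123 by edgeR. Under pathway scaling its groups overlapped, at 12.6, 141 and 34.5 against 22.6, 11.5, 5.63 and 12.8. That call rested on Extraocular Muscle 2, without which the pathway-scaled difference was 0.94 ± 0.63 (SE) with adjusted p = 0.585 by edgeR. It was 1.15 without Extraocular Muscle 2 and Adductor Skeletal Muscle 1, with adjusted p = 0.543 by edgeR. The adjusted p ran from 0.00108 to 0.914 over 34 alternatives. These duplicates were the 2 genes of 49 (4.08%) whose extraocular levels lay wholly above the adductor levels, and smad4bb1 was the 1 gene (2.04%) wholly below. With 3 against 4 samples, a share of 0.0571 of the 35 arrangements separates the groups fully in either direction by chance. Separation alone therefore does not set these genes apart. Under pathway scaling gdf11b2 and bambia2 lay wholly above (4.08%), and acvr1bb2, acvr2ab1, acvr2ba2, smad4ab2 and smad4bb1 wholly below (10.2%). The nerve list, which held only the gdf11b pair because that pair was found high in Brain and Retina in an earlier account of these data, is not independent of the pair, and the panel had no other nerve marker. In the 3 Brain samples the level of gdf11b2 was 62.6 to 235 and that of gdf11b1 104 to 186. The mean of gdf11b1 was 132 ± 46.6 (SD, n = 3) in Brain and 129 in Red Skeletal Muscle (n = 3). That of gdf11b2 was 127 ± 94.5 (SD, n = 3) in Brain and 116 in Extraocular Muscle (n = 3). In Red Skeletal Muscle the mean of gdf11b2 was 75.6 (n = 3), and in the other 5 muscles it was 10.8 to 33.0. The part of nerve in the extraocular values was not tested.

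The gdf11b targets lie on different chromosomes and share little sequence, which is why their first 30 of 100 bases are shown, 5′ to 3′ from the authors' probe list.
gdf11b1: cacctgcaatggacctttaaaagtgaacag
gdf11b2: tcttaggcccaacggaagtcatgcatactc
The authors' list places gdf11b1 (LOC110494206) on chromosome 17 and gdf11b2 (LOC110528233) on chromosome 7. Across the 21 pairs the longest run of bases that the targets of both copies share was 5 to 8.

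None of the 3 myostatin probes passed the test. For mstna1, whose levels are given above, the log2 difference was 0.67 ± 1.03 (SE) with adjusted p = 0.770 by edgeR's quasi-likelihood test, and 1.25 ± 1.01 (SE) without Extraocular Muscle 2. The estimate was negative in limma on log2(level + 10), at -0.57. The second myostatin pair was measured as mstnb1 and mstnb2. The level of mstnb1 was 150, 4.21 and 8.27 in Extraocular Muscle 1 to 3 and 9.94, 71.4, 2.61 and 27.0 in Adductor Skeletal Muscle 1 to 4. That of mstnb2 was 126, 1.40 and 4.73 against 9.94, 33.3, 5.21 and 18. Among the extraocular samples Extraocular Muscle 1 alone was high, at 206 and 173 counts. Extraocular Muscle 2 and 3 had 2 to 7 counts. Adductor Skeletal Muscle 2 came next by level, at 15 and 7 counts, both above background. The log2 differences of 0.97 ± 1.03 (SE) and 1.42 ± 1.06 (SE) had adjusted p = 0.736 and 0.603 by edgeR's quasi-likelihood test. They turned to -2.18 and -2.51 without Extraocular Muscle 1.

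The inhibin alpha pair, inhab1 and inhab2, followed the same samples. Inhibin alpha joins an activin beta chain to form inhibin, which opposes activin, and it is best known from the gonads. The counts of inhab1 were 201, 13 and 13 in Extraocular Muscle 1 to 3 and 1, 10, 3 and 17 in Adductor Skeletal Muscle 1 to 4. For inhab2 they were 173, 8 and 11 against 2, 14, 1 and 9. Among the extraocular samples again only Extraocular Muscle 1 was high, and the groups overlapped. By level the next sample was Adductor Skeletal Muscle 2, at 47.6 for inhab1 and 66.7 for inhab2, both above background. The levels in Extraocular Muscle 1, 147 and 126, compare with 1078 to 1277 and 829 to 934 in the 3 Testes samples. In the 3 Ovaries samples they ran from 165 to 3770 and from 82.1 to 2722, with Ovaries 3 lowest and the next sample at 2574 and 2278. In Red Skeletal Muscle, the muscle most like Extraocular Muscle 1, the mean level of mstnb1 was 184 and that of mstnb2 was 148 (n = 3).

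Among the activin beta A chains, which pair to form activin A, inhbab1 and inhbaa2 passed the unadjusted test in opposite directions. The level of inhbab1 was 24.1, 1.40 and 138 in Extraocular Muscle 1 to 3 and 19.9, 14.3, 2.61 and 10.5 in Adductor Skeletal Muscle 1 to 4. The counts behind these were 33, 2 and 117 against 2, 3, 1 and 7, so all adductor values lay at background and the groups overlapped through Extraocular Muscle 2. The log2 difference was 2.38 ± 0.96 (SE) with adjusted p = 0.264 by edgeR's quasi-likelihood test. It was 3.19 ± 1.00 (SE), adjusted p = 0.0428 by edgeR, without Extraocular Muscle 2 and Adductor Skeletal Muscle 1, but 0.31 without Extraocular Muscle 3. Over 34 alternatives its adjusted p ran from 0.00603 to 0.986. For inhbaa2 the levels were 10.9, 3.5 and 17.7 against 29.8, 14.3, 26.1 and 30.02. They rest on 15, 5 and 15 counts against 3, 3, 10 and 20. Only those of Extraocular Muscle 3 and Adductor Skeletal Muscle 4 passed background. The log2 difference of inhbaa2 was -1.26 ± 0.54 (SE) with adjusted p = 0.281 by edgeR's quasi-likelihood test. With negative controls subtracted it was -1.07 ± 1.11 (SE), with adjusted p = 0.812 by edgeR. The 4 activin beta B chains, inhbba1, inhbba2, inhbbb1 and inhbbb2, had estimates from -0.24 to 0.35, 2 above 0 and 2 below. The activin beta C pair, inhbcb1 and inhbcb2, is best known from the liver. Its summed level was 230, 3.5 and 33.1 in Extraocular Muscle 1 to 3 and 229, 129, 65.2 and 67.5 in Adductor Skeletal Muscle 1 to 4, and the groups overlapped. The value of Adductor Skeletal Muscle 1 rests on 3 counts of inhbcb1 and 20 of inhbcb2, both below its background limit. In Extraocular Muscle 1 these counts were 114 and 201.

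Follistatin, measured as fsta by a probe that binds 2 loci, had nearly equal mean levels. Its level was 82.4, 9.11 and 76.8 in Extraocular Muscle 1 to 3 and 59.6, 33.3, 73.0 and 64.5 in Adductor Skeletal Muscle 1 to 4. Extraocular Muscle 1 and 3 lay above all adductor samples and Extraocular Muscle 2 below all of them. The log2 difference was -0.06 with a 95% interval of -1.36 to 1.25 and adjusted p = 0.952 by edgeR's quasi-likelihood test. The estimate was 0.45 without Extraocular Muscle 2 and -0.46 without Extraocular Muscle 1. The mean level was 56.1 ± 40.8 (SD, n = 3) in Extraocular Muscle and 57.6 ± 17.1 (SD, n = 4) in Adductor Skeletal Muscle, the lowest means of the 7 skeletal muscles, where Caudal Skeletal Muscle was highest at 320 (n = 2). Of the decoy receptors, bambia1 read 221, 77.8 and 92.1 against 219, 152, 107 and 94.6, and bambia2 read 86.8, 25.2 and 33.1 against 19.9, 14.3, 20.9 and 37.5. Both overlapped between the groups.

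**Figure D4:**
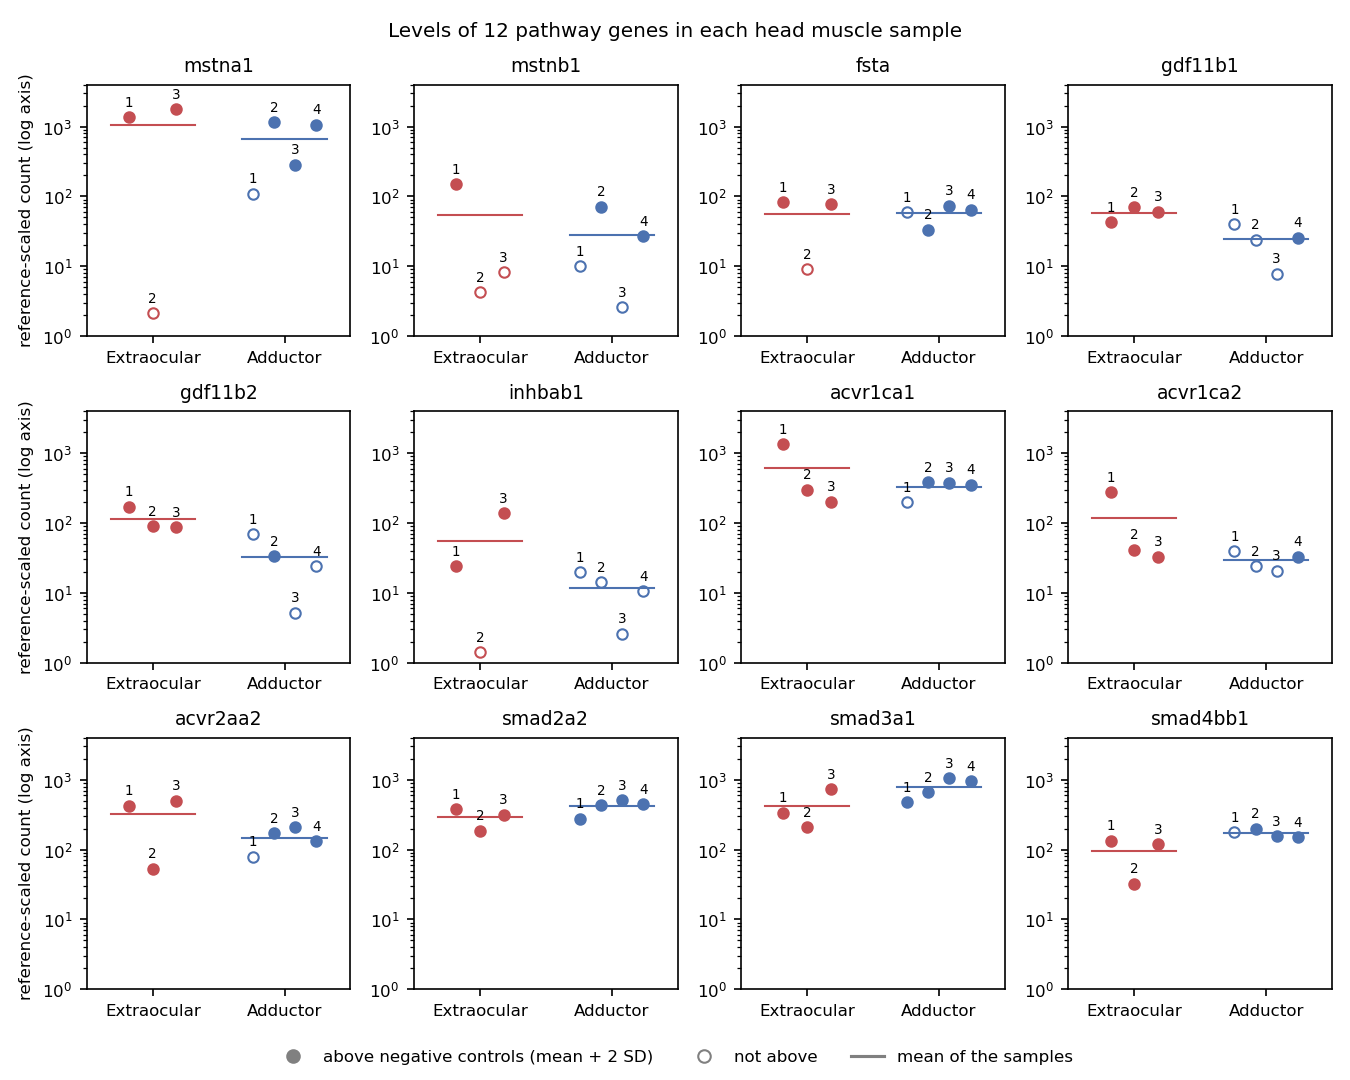
Reference-scaled counts (log axis) of 12 genes in each of the 3 Extraocular (red) and 4 Adductor (blue) samples, numbered by replicate, with the group mean as a line. Open circles are not above the negative controls. The gdf11b2 samples do not overlap, at 86.2 to 171 against 5.21 to 69.6, and mstna1 in Extraocular Muscle 2 stands at 2.10.

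Of 7 type II receptor genes 2 had estimates above 0 and 5 below, with a median of -0.38. The gene that departed from the others was acvr2aa2, a copy of activin receptor 2A, which binds activins and myostatin. Its level was 422, 53.3 and 502 in Extraocular Muscle 1 to 3 and 79.5, 171, 209 and 132 in Adductor Skeletal Muscle 1 to 4. In Adductor Skeletal Muscle 1 the level of acvr2aa2 rests on 8 counts, below the background limit of 21.6. Extraocular Muscle 1 and 3 stood at more than every adductor sample and Extraocular Muscle 2 at less. The log2 difference was 1.12 ± 0.43 (SE) with adjusted p = 0.264 by edgeR's quasi-likelihood test. It was 1.62 ± 0.39 (SE) without Extraocular Muscle 2, with adjusted p = 0.00645 by edgeR. Without Adductor Skeletal Muscle 1 it was 0.93 ± 0.46 (SE), with adjusted p = 0.311 by edgeR. Leaving out Extraocular Muscle 1 gave 0.88, leaving out Extraocular Muscle 3 gave 0.66, and the adjusted p over 34 alternatives ran from 0.00105 to 0.914. Its duplicate acvr2aa1 read 253, 139 and 464 against 238, 405, 375 and 323, with a log2 interval within 1 unit of 0.

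The ratio of duplicates within a sample does not depend on the reference genes. Of the summed counts of the acvr2aa pair, acvr2aa1 took 37.5%, 72.4% and 48% in Extraocular Muscle 1 to 3 and 75.0%, 70.2%, 64.3% and 71.0% in Adductor Skeletal Muscle 1 to 4. Extraocular Muscle 1 and 3 had smaller shares than every adductor sample, and Extraocular Muscle 2 lay within the adductor range. The share in Adductor Skeletal Muscle 1 rests on 8 counts of acvr2aa2, below its background limit. For the change of this ratio between the muscles, 0 of 21 pairs passed edgeR's quasi-likelihood test after adjustment (0%), with a smallest adjusted p of 0.159, and 4 pairs (19%) had an unadjusted p under 0.05. These were acvr2aa, smad3a, acvr1ca and inhbab. Limma on the log2 ratio of the copies also called 0 pairs, with 2 at an unadjusted p under 0.05. For acvr2aa the log2 ratio of copy 1 to copy 2 was lower in Extraocular Muscle by a difference of -1.05 ± 0.38 (SE). It was -1.61 ± 0.38 (SE) without Extraocular Muscle 2 (adjusted p = 0.00194 by edgeR), -1.55 without Extraocular Muscle 2 and Adductor Skeletal Muscle 1 (adjusted p = 0.00581 by edgeR) and -0.59 without Extraocular Muscle 1. Over 18 alternatives the adjusted p ran from 0.00194 to 0.625. The targets of these copies are shown by their first 30 of 100 bases, 5′ to 3′ from the authors' probe list, because the result is a difference between the copies.
acvr2aa1: ggaagaaggaatgagaattatatcgactgg
acvr2aa2: ctccctaagcagaaggtcaggactctttcc
The authors' list places acvr2aa1 (LOC110520186) on chromosome 3 and acvr2aa2 (LOC110501883) on chromosome 22.

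The type I receptors were spread on both sides of 0, with 4 of 10 genes above and 6 below and a median of -0.03. The acvr1c pair codes for ALK7, a type I receptor best known from fat cells. The level of acvr1ca1 was 1336, 299 and 202 in Extraocular Muscle 1 to 3 and 199, 381, 375 and 354 in Adductor Skeletal Muscle 1 to 4. The level of acvr1ca2 was 274, 41.4 and 33.1 against 39.7, 23.8, 20.9 and 33.0. These adductor levels rest on 4, 5, 8 and 22 counts, above the background limit in Adductor Skeletal Muscle 4 alone. Extraocular Muscle 1 stood far above the other 6 samples for both copies. For acvr1ca2 the log2 difference was 2.02 ± 0.90 (SE) with adjusted p = 0.281 by edgeR's quasi-likelihood test, and without Extraocular Muscle 1 it was 0.38. In the 3 Visceral Fat samples acvr1ca1 ran from 494 to 1317 and acvr1ca2 from 45.8 to 158. Both copies were also high in other skeletal muscles, where mean levels were 280 to 694 for acvr1ca1 and 65.1 to 195 for acvr1ca2. The pair was listed as a fat marker because an earlier account of these data found it high in Visceral Fat, but these levels do not tell fat from muscle, and the panel had no other fat marker. The part of fat in Extraocular Muscle 1 was not tested. The acvr1ab pair had the narrowest intervals among the type I receptors: acvr1ab1 read 157, 77.1 and 176 against 89.4, 181, 123 and 114, and acvr1ab2 read 562, 151 and 399 against 507, 486, 360 and 386.

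Of the 10 receptor-regulated and common Smad genes, 2 had estimates above 0 and 8 below, with a median of -0.54 against -0.10 over all genes, and 0 passed the test by edgeR, adjusted or at an unadjusted p under 0.05. Without Extraocular Muscle 2 and Adductor Skeletal Muscle 1, 4 estimates were above 0 and 6 below, and their median was -0.20. The level of smad4bb1, a copy of the common Smad4, was 133, 32.2 and 119 in Extraocular Muscle 1 to 3 and 179, 200, 156 and 150 in Adductor Skeletal Muscle 1 to 4. In Adductor Skeletal Muscle 1 this level rests on 18 counts, below the background limit of 21.6. By these levels, which are not background-corrected, all extraocular samples lay below all adductor samples. They did so under pathway scaling too, at 39.1, 65.0 and 68.3 against 102, 96.3, 113 and 75.4. Its log2 difference was -0.85 ± 0.48 (SE) with adjusted p = 0.442 by edgeR's quasi-likelihood test. It shrank to -0.43 without Extraocular Muscle 2 and to -0.41 without Extraocular Muscle 2 and Adductor Skeletal Muscle 1. Without Extraocular Muscle 1 it was -1.18. The receptor-regulated smad3a1 read 337, 209 and 725 against 477, 667, 1043 and 958, and smad2a2, whose probe binds the smad2a and smad2b genes, read 379, 187 and 318 against 278, 433, 513 and 447. Both overlapped between the groups. The inhibitory Smads overlapped as well, with smad6a1 at 95.5, 37.1 and 122 against 49.7, 57.1, 91.2 and 43.5, and smad7b2 at 252, 47.7 and 344 against 229, 271, 232 and 293.

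Among the duplicates of the Smads, smad3a was the 1 pair of 21 (4.76%) whose copy shares did not overlap. With 3 against 4 samples a share of 0.0571 of the arrangements separates the groups fully by chance. Separation alone therefore does not set this pair apart. Copy 1 took 75.0%, 92.3% and 95.2% of the pair's counts in Extraocular Muscle 1 to 3 and 96.0%, 97.2%, 96.6% and 96.2% in Adductor Skeletal Muscle 1 to 4. The ratio's log2 difference was -1.69 ± 0.68 (SE) with adjusted p = 0.173 by edgeR's quasi-likelihood test, and without Extraocular Muscle 1 it was -0.83. The adductor shares of smad3a rest on 2, 4, 14 and 25 counts of smad3a2, above background in Adductor Skeletal Muscle 4 alone. For acvr1ca copy 1 took 83.0%, 87.9% and 85.9% against 83.3%, 94.1%, 94.7% and 91.5%, with a log2 difference of -1.003 ± 0.48 (SE), and limma on the log2 ratio with 10 added to each count gave -0.04. The adductor shares rest on 4, 5, 8 and 22 counts of copy 2, above background in Adductor Skeletal Muscle 4 alone. In Adductor Skeletal Muscle 1 the 20 counts of copy 1 lay below the background limit too. For inhbab copy 1 took 32.4%, 40.0% and 91.4% against 25.0%, 37.5%, 20% and 33.3%, so its share was far larger in Extraocular Muscle 3 than in the other samples. These shares rest on 69, 3 and 11 counts of copy 2 against 6, 5, 4 and 14, above background in Extraocular Muscle 1 alone. The log2 difference was 1.95 ± 0.93 (SE), and 0.18 without Extraocular Muscle 3. The acvr1ca and inhbab pairs both had adjusted p = 0.211 by edgeR's quasi-likelihood test. Without Extraocular Muscle 1 edgeR called 3 pairs (14.3% of 21), inhbab at 3.79, inhbba at 1.80 and acvr1ab at 0.66, and in each of them the ratio of copy 1 to copy 2 was larger in Extraocular Muscle. Without Extraocular Muscle 1 and Adductor Skeletal Muscle 1, chosen after seeing the data, inhbab and inhbba were called (9.52% of 21). For inhbba, the pair of activin beta B chains, copy 1 took 50.3%, 80.0% and 73.9% against 50%, 42.9%, 50% and 51.9%. The extraocular shares rest on 144, 7 and 12 counts of copy 2, above background in Extraocular Muscle 1 alone. In Adductor Skeletal Muscle 1 and 3 neither copy passed background, at 5 and 7 counts of each.

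**Figure D5:**
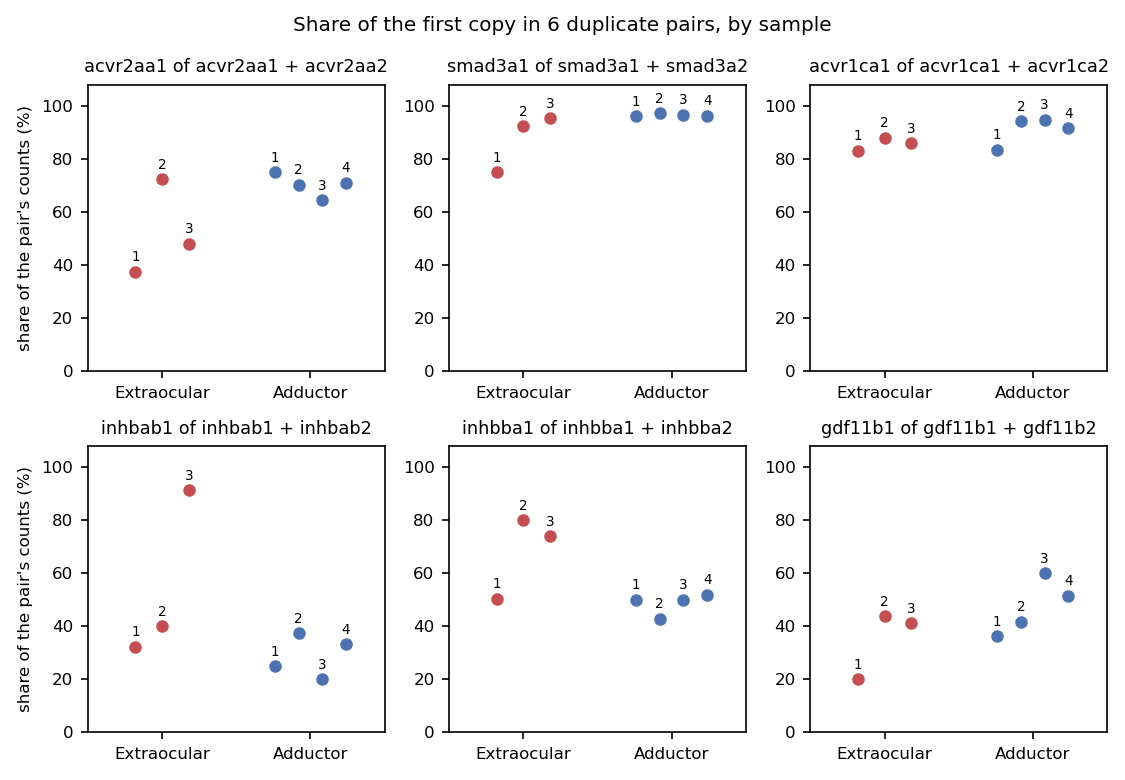
Share of copy 1 in the summed counts of 6 duplicate pairs (percent, y axis from 0) in each Extraocular (red) and Adductor (blue) sample, numbered by replicate. The smad3a shares do not overlap, at 75.0% to 95.2% against 96.0% to 97.2%, and the acvr2aa share of Extraocular Muscle 2, 72.4%, lies among the adductor samples.

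Placed among the 7 skeletal muscles by the mean of log2(level + 10), Extraocular Muscle was lowest for 25 of 49 genes and highest for gdf11b2 and inhbab1. Without Extraocular Muscle 2 it was lowest for 6 genes and highest for 5, namely acvr2aa2, acvr2bb, gdf11b2, inhbab1 and smad3a2. Adductor Skeletal Muscle was lowest for 7 genes, or 14 once Extraocular Muscle 2 was left out, and highest for smad3a1, smad4bb1 and smad4bb2 in each case. Once Adductor Skeletal Muscle 1 was left out as well, it was highest for acvr2ba2, smad3a1 and smad4bb1. The mean level of gdf11b2 was 116 ± 48.2 (SD, n = 3) in Extraocular Muscle, 75.6 in Red Skeletal Muscle (n = 3) and 10.8 to 33.0 in the other 5 muscles. By mean level its duplicate gdf11b1 was instead highest in Red Skeletal Muscle at 129 (n = 3) and Pelvic Fin Skeletal Muscle at 72.2 (n = 4). Extraocular Muscle followed at 57.8 ± 13.7 (SD, n = 3). By the mean of log2(level + 10), Extraocular Muscle ranked 2 of 7 for gdf11b1, after Red Skeletal Muscle. The mean level of smad4bb1 was 171 ± 22.8 (SD, n = 4) in Adductor Skeletal Muscle and 95 ± 54.8 (SD, n = 3) in Extraocular Muscle, and it ran from 84.9 to 158 in the other 5 muscles. These orders are descriptions and were not tested.

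The authors' deposited table of normalized signal, with 1 value per gene and tissue, ranked gdf11b2 first among the 49 genes by the ratio of Extraocular to Adductor, with signals of 198 and 21.5, and gdf11b1 second, with 102 and 22.4. It ranked mstna1 last, with signals of 309 and 940 in the authors' deposited table. Set against the counts, each signal was a constant times the geometric mean of the pooled samples for 47 of 49 genes, within 0.01 log2 units. Extraocular Muscle 1 to 3 were pooled there, so the 3 counts of mstna1 in Extraocular Muscle 2 enter that geometric mean. Adductor Skeletal Muscle 2 to 4 were pooled, and Adductor Skeletal Muscle 1 was not part of the value. The constant of 1 of these 3 adductor samples differed from that of the extraocular samples by 1.29 on the log2 scale, which offsets the adductor signals by 0.43. By the authors' deposited table Extraocular was higher than Adductor for 21 of 49 genes, and for 15 after the offset was removed.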

How the data were processed

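The authors deposited raw NanoString counts, whole numbers of barcodes per probe and sample, neither normalized nor background-corrected. No count is 0, so zeros may have been raised to 1. A second table deposited by the authors holds a normalized signal per gene and tissue with replicates pooled. How it was normalized is not stated in the labels or headers, and it served only for ranks and scale. Gene identities, chromosomes and 100-base targets come from the authors' lists, and all 49 gene identifiers matched RefSeq (USDA_OmykA_1.1), of which no coordinates are printed. Extraction reagents varied by tissue, with Tri-Reagent for muscle per the labels.

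Counts were fitted with edgeR 4.0.16 (quasi-likelihood, R 4.3.3) with a coefficient for each of 23 tissues, an offset from the geometric mean of 3 reference genes, two-sided tests and Benjamini-Hochberg adjustment over 49 genes or 21 pairs at 0.05. Duplicate ratios were fitted with a level per sample and a copy effect per tissue. Alternatives used DESeq2 1.42.0, limma 3.58.1 and other scalings, filters and samples. Exact permutation tests used scipy 1.17.1. The fits were also run on simulated counts with the same spread in all tissues. Such counts cannot check the fits under the larger spread of the extraocular samples. The muscles, gene lists and markers were chosen with earlier results of these data known. By the naming rule, called genes, the myostatins and fsta are given per sample. The p-values of the main fits rest on a spread between replicates estimated over all 70 samples of 23 tissues, not on the 7 samples alone. No 2 replicates were copies of each other.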

Additional observations from a re-analysis of the deposited data

Results flagged for a closer look

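In 3 of 72 sets of 4 adductor values, a sample lay farther from the rest than Dixon's critical value for 4 samples at 95% allows, where chance alone gives about 1 in 20, or 3.6 sets. For acvr1aa2, a type I receptor, Adductor Skeletal Muscle 2 was lowest, with a level of 71.4 against 140 to 159 in the others and a gap of 0.833 of the range on the log2 scale. For acvr1ca1, Adductor Skeletal Muscle 1 was lowest, with 199 against 354 to 381 and a gap of 0.887. For inhbbb2, an activin beta B chain, Adductor Skeletal Muscle 1 was highest, with 69.6 against 38.1 to 40.5 and a gap of 0.902, from 7 counts that lay below its mean negative control of 8.625. Extraocular Muscle, with 3 samples, was too small for this test.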

How the results depend on the processing

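The number of genes called by edgeR was 0 and moved to 2 with pathway scaling, 3 with TMM, 20 with the positive controls as the scale (median log2 difference 1.63), 5 with DESeq2's own size factors (median 0.21) and 1 with limma at a pseudocount of 50. All of these calls were higher in Extraocular Muscle. Leaving out 1 sample at a time gave 0 to 1 genes and 0 to 3 duplicate pairs, the 1 gene without Extraocular Muscle 2 and the 3 pairs without Extraocular Muscle 1. Alternatives chosen after seeing the data gave 3 genes and 1 pair without Extraocular Muscle 2 and Adductor Skeletal Muscle 1, and 0 genes and 2 pairs without Extraocular Muscle 1 and Adductor Skeletal Muscle 1. With pathway scaling they gave 2 genes without Extraocular Muscle 2 and Adductor Skeletal Muscle 1, 2 without Adductor Skeletal Muscle 1, 2 without Extraocular Muscle 2, 4 without Extraocular Muscle 1 and 3 without Extraocular Muscle 3. These counts stand for different genes: gdf11b1 and gdf11b2 with all samples or without Adductor Skeletal Muscle 1, gdf11b2 and inhbab1 without Extraocular Muscle 2 and Adductor Skeletal Muscle 1, acvr2aa2 and inhbab1 without Extraocular Muscle 2, all 4 of these without Extraocular Muscle 1, and the gdf11b pair with acvr1ca2 without Extraocular Muscle 3. The pathway total, at -0.22, ran from -0.64 to 0.44 as single samples were left out. It turned to 0.068 with tbp alone, 1.85 with the positive controls, 0.077 with negative controls subtracted and 0.35 without Extraocular Muscle 2 and Adductor Skeletal Muscle 1. The sign of mstna1 turned in limma with pseudocounts of 10, 1 and 50 (-0.57, -1.18 and -0.016), without Adductor Skeletal Muscle 1 and 3 (-0.087) and with pathway scaling without Extraocular Muscle 3 (-0.76). Without Extraocular Muscle 1 and Adductor Skeletal Muscle 1, and with pathway scaling without Extraocular Muscle 1, mstnb1 turned to -2.37 and -1.18 and mstnb2 to -2.61 and -1.65. In limma with a pseudocount of 1 mstnb2 turned to -0.27. With single samples left out mstnb1 ran from -2.18 to 1.89, mstnb2 from -2.51 to 1.99 and fsta from -0.46 to 0.45. The estimate of fsta turned to 0.12 with actb alone, 0.24 with tbp alone, 1.47 with the positive controls, 0.12 with DESeq2's own size factors, 0.49 with negative controls subtracted, 0.011 with the replicate block, 0.46 without Extraocular Muscle 2 and Adductor Skeletal Muscle 1, 0.16 without Adductor Skeletal Muscle 1 and 3 and 0.047 without Adductor Skeletal Muscle 1 and 4. With the positive controls inhbaa2 turned to 0.25 and smad4bb1 to 0.85. The cause of these turns was not tested. The estimates of gdf11b1, gdf11b2, acvr2aa2, inhbab1 and acvr1ca2 stayed above 0 under 34 alternatives each. In limma the acvr1ca ratio was -0.04 against -1.003 in edgeR. The replicate number as a block called 0 genes and 0 pairs. Same-numbered samples had correlations of -0.09, -0.50 and 0.39 between their deviations, and differently numbered ones ran from -0.46 to 0.59. So few values cannot show whether same-numbered samples came from the same fish, which the labels do not give. The fits planned within 1 scale of the authors' deposited table were not run, because the values do not tell which of Adductor Skeletal Muscle 2 to 4 has the other scale. Leaving out each of these 3 together with Adductor Skeletal Muscle 1 called 0 genes each time. At the depth of Adductor Skeletal Muscle 1, with 511 pathway counts, most genes could not be told from background.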
